A study of Mus musculus with 6 samples.

Results

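The proteasome genes were studied in isolated lung endothelial cells (iLECs) of 3 control and 3 *Atp6ap2* iECKO mouse samples. Members were the gene symbols that begin with *Psma* to *Psmg* and a number, without pseudogenes, and 50 of the 24972 symbols in the deposited table met this rule. They encode the subunits of the proteasome, its activators, an inhibitor and assembly chaperones. The rule also takes in *Psmc3ip*, whose product is a cofactor of meiotic recombination and no part of the proteasome, so counts are given with and without it. The rule uses names and not values, but it was set with earlier results of these data known.

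iLECs were CD31+ cells isolated with magnetic beads from digested lungs at postnatal day 7. All 6 samples carried a floxed *Atp6ap2* allele (*Atp6ap2* fl/Y in the labels), and both groups had received 100 µg of tamoxifen on postnatal days 1 to 3. *Atp6ap2* iECKO samples also carried Cdh5-CreERT2, a Cre recombinase that the *Cdh5* promoter drives in endothelial cells and that tamoxifen activates, whereas control samples lacked Cre. Effects of the recombinase itself and of the deletion therefore cannot be told apart. The labels give C57BL/6 as the strain, the study's methods a mixed CD1 and C57BL/6 background, and neither says how many pups made up a sample, so *P* values measure the spread between these samples only.

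The deposited values had been normalized between libraries by the authors and are called normalized counts here. *Atp6ap2*, the targeted gene, which encodes the prorenin receptor, an accessory protein of the vacuolar proton pump, had normalized counts of 7490.2, 5815 and 5681 in the control and 4219.85, 2336 and 1982 in the iECKO libraries. The groups did not overlap, and *Atp6ap2* fell by 1.22 on the log2 scale (SE 0.26, adjusted *P* = 0.0306, limma). The call held in 1 of 6 fits that left out a library. Totals of normalized counts were similar in the 6 libraries, but the smallest steps between values, onto which only some of the low values fall, gave the iECKO libraries an estimated relative depth of 1.26 to 1.55 and the control libraries one of 1.00 to 1.04, with the shallowest library as the unit. *Xist*, the RNA that silences an X chromosome in female cells, was above 1000 in 4 of the 6 libraries, 2 of each genotype. The labels describe all samples as fl/Y, whereas the study's methods say that neonates of both sexes were used. *Pecam1*, *Cdh5* and the other defining endothelial markers were well expressed in every library. None of 24 defining markers of endothelial, fibroblast, mural, epithelial, leukocyte and blood cells was at 0 in any library. The lowest value was near the floor, at 5.71 for *Dcn* in iECKO replicate 3. The fibroblast marker *Col1a1* was at 3913 to 17353 and the mural marker *Pdgfrb* at 1934 to 7430, so the isolates held RNA of other lung cells too. In such bulk RNA, fewer cells of a type and less RNA per cell cannot be told apart.

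The proteasome is the main protease of the cytosol and nucleus for proteins marked with ubiquitin. Its core, the 20S particle, is a barrel of stacked rings, in which α subunits (*Psma* genes) form the gate and β subunits (*Psmb* genes) the proteolytic chamber. The 19S regulatory particle caps the barrel. Its ATPases (*Psmc* genes) unfold substrates and thread them into the core, and its other subunits (*Psmd* genes) bind ubiquitin chains and cut them off. The capped particle is called the 26S proteasome. Interferon can replace the constitutive catalytic β subunits by immunoproteasome subunits, whose cleavage products suit antigen presentation.

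Promoter sequences are shown for *Psmd14* and *Psmc4*, the members that passed the test below, and for *Psmd11*, the member closest to passing. Each is the 250 bases just before the gene's RefSeq start in GRCm38.p6, read 5′ to 3′ on the gene's strand, with matches to the motifs searched in capitals. The windows lie at chr2:61711444-61711693 (plus strand) for *Psmd14*, chr7:28050093-28050342 (minus strand) for *Psmc4* and chr11:80428365-80428614 (plus strand) for *Psmd11*.
Psmd14: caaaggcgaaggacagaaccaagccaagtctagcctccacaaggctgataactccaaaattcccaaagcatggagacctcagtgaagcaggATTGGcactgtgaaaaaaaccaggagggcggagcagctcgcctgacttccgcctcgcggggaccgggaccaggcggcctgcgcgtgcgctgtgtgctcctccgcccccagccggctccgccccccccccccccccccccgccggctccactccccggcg
Psmc4: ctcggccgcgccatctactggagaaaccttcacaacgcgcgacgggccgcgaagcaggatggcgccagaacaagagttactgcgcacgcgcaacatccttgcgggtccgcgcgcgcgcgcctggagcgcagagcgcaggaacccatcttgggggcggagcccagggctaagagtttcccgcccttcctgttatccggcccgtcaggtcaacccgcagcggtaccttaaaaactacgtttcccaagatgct
Psmd11: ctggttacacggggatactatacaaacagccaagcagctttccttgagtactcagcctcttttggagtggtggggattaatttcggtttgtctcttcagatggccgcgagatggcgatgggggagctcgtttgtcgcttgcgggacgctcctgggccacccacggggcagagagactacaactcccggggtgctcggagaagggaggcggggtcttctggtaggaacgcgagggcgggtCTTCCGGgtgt

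The capitals mark a CCAAT box (reverse strand) 159 bases before the *Psmd14* start and a CCGGAAG motif, the form bound by ETS factors, 11 bases before the *Psmd11* start (reverse strand). The *Psmc4* window held none of the motifs. Windows were available for 42 of the 50 members, 45 windows in all, because some genes have more than 1 start, and motifs were searched on both strands. CCGGAAG was found in 14 of the 45 member windows (31.1%) and in 6.91% of all 32851 promoter windows. CCAAT was found in 15 member windows (33.3%) and in 33.8% of all windows. The antioxidant response element core TGACNNNGC, which NFE2L1 and NFE2L2 can bind, was found in 5 (11.1%) and in 10.2%, the interferon response core GAAANNGAA in 3 (6.67%) and in 7.13%, and TTCNNNGAA, the gamma-activated site of interferon-responsive promoters, in 2 (4.44%, *Psmb8* and *Psmg1*) and in 7.02%. Start sites differ between annotations. The RefSeq window of *Psmb8* lies inside the GENCODE gene, and the end of that of *Psmc4* overlaps the GENCODE first exon. The 13 genes with CCGGAAG were *Psma6*, *Psmc1*, *Psmc2*, *Psmc6*, *Psmd2*, *Psmd4*, *Psmd6*, *Psmd11*, *Psmd12*, *Psme3*, *Psme4*, *Psmg1* and *Psmc3ip*. The windows of all genes were not matched to those of the members in expression or base composition. A match is a run of letters and not evidence of binding.

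Most proteasome genes had slightly higher normalized counts in the *Atp6ap2* iECKO libraries, but few single genes passed the test. Of the 50 members, 49 reached 10 normalized counts in 3 or more libraries and were tested among 14456 genes. *Psmd14* and *Psmc4*, both of the 19S particle, rose, and none fell. These 2 calls are 4.08% of the members tested, near the 3.28% of all tested genes that rose, so the number called did not set the members apart. Over all genes, 4.97% fell and 8.25% changed in either direction. *Psma8*, the α subunit of testis, was not tested, at 4.60 to 8.63 in the control and 7.67 to 19.4 in the iECKO libraries.

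The log2 fold change was above 0 for 44 of the 49 members (89.8%), beside 50.7% of all genes tested. Its median was 0.17, that is 12.3% higher in the iECKO libraries, beside 0.0049 over all genes. All iECKO libraries lay above all control libraries for 22 members (44.9%) and for 14.7% of all genes. The reverse order was found for 0 members, beside 15% of all genes. At an unadjusted *P* below 0.05, 15 members were higher (30.6%) and 0 lower, beside 11.6% and 12.3% of all genes. The members were read in the same 6 libraries, so these counts are not counts of independent observations. The members were also more precisely measured than most genes, with a median SE of 0.0913 on the log2 scale beside 0.156. Without *Psmc3ip*, 43 of 48 members were above 0, with 22 in which the groups did not overlap, and the median was unchanged at 0.17.

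**Figure D1:**
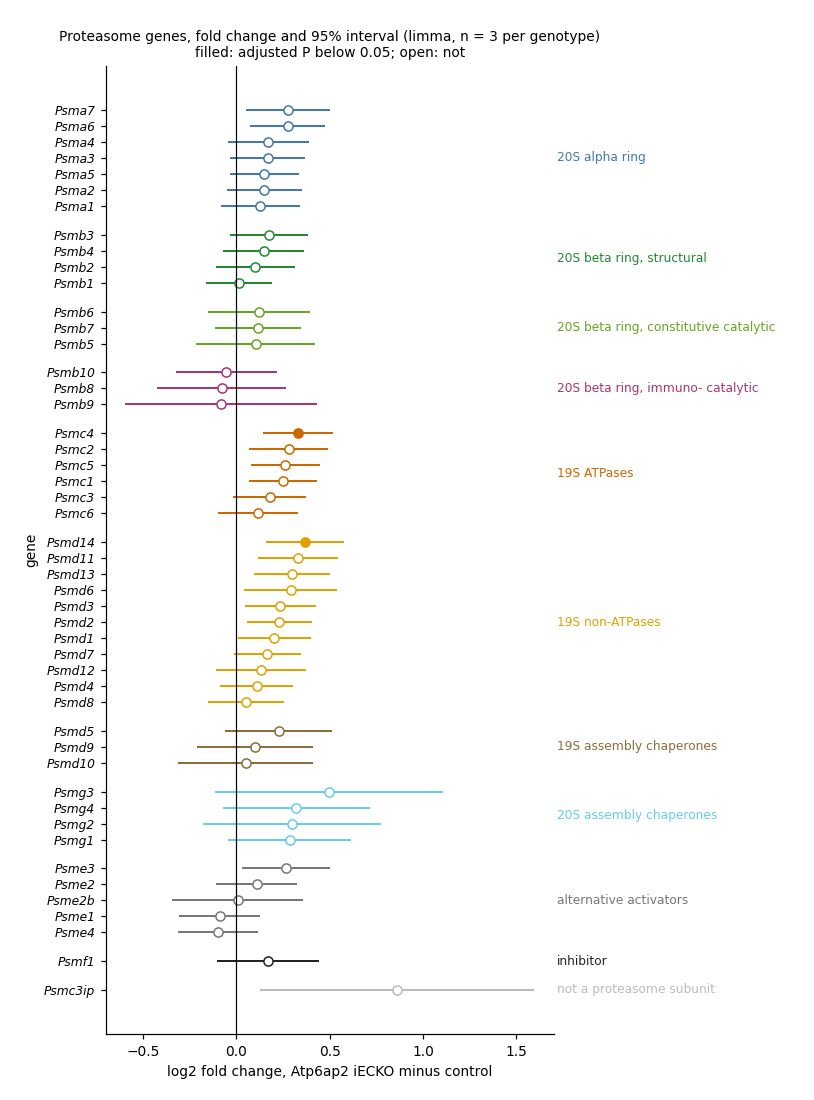
Log2 fold change (iECKO minus control) of 48 of the 49 proteasome genes tested, by role, with limma's 95% confidence interval (n = 3 per genotype). *Psmb11*, near the filter, is not drawn. Most points lie between 0 and 0.37, those of the immunoproteasome catalytic subunits lie just below 0, and only *Psmd14* and *Psmc4* passed an adjusted *P* of 0.05.

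The 19S regulatory particle carried the most uniform difference. All 17 of its tested subunits had a log2 fold change above 0, with a median of 0.23 (17.6% higher). All iECKO libraries lay above all control libraries for 14 (82.4%), beside 14.7% of all genes tested. At an unadjusted limma *P* below 0.05, 11 were higher (64.7%), beside 11.6% of all genes. Genes read in the same libraries can share a shift, so these counts are not independent either. The summed normalized counts of these genes were 31419, 32349 and 31900 in the control and 37087, 38158 and 36008 in the iECKO libraries. Every iECKO sum was above every control sum, and the mean was 16.3% higher, at 37085 ± 1075 against 31890 ± 465 (SD, n = 3 each). An exact permutation test of 3 samples against 3 cannot go below a two-sided *P* of 0.1.

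*Psmd14* (chr2:61711694-61800376) encodes the deubiquitinase of the 19S lid, which removes ubiquitin chains as a substrate is drawn in. Its normalized counts were 1000.3, 1100.3 and 1056 in the control and 1281, 1443 and 1353 in the iECKO libraries. The groups did not overlap, and the gene rose by 0.37 on the log2 scale (SE 0.088, 95% confidence interval 0.165 to 0.572, adjusted *P* = 0.0435, limma), or 29.1%. Among the non-ATPase subunits this was the highest log2 fold change. The call did not hold when any of the 6 libraries was left out, with adjusted *P* values of 0.0561 to 0.170 and log2 fold changes of 0.32 to 0.41.

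*Psmc4* (chr7:28041707-28050101) encodes an ATPase of the ring that sits on the 20S core. It was measured at 1713, 1852 and 1884 in the control and at 2169, 2357 and 2323 in the iECKO libraries. The groups again did not overlap, and the gene rose by 0.33 (log2 scale, SE 0.080, 95% confidence interval 0.146 to 0.514, adjusted *P* = 0.0445), or 25.7%, the highest log2 fold change of the 6 ATPases. Its adjusted *P* was 0.0588 to 0.168 with each library left out, again past the threshold in none. Neither call held without the filter on low values, without the mean-variance trend or with a covariate for the presence of *Xist*, and *Psmc4* was not called after scaling to library totals.

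The other ATPases, which form the same ring, were 0.12 to 0.28 higher on the log2 scale, with adjusted *P* values between 0.0843 and 0.492. The groups did not overlap for 5 of the 6 (83.3%), with the iECKO libraries higher, beside 14.7% of all genes tested. The lowest was *Psmc6*, at 2140, 2037 and 1976 in the control and 2331, 2357 and 1997 in the iECKO libraries, which overlapped through the last iECKO value (log2 fold change 0.12, SE 0.091, adjusted *P* = 0.492). Reads of *Psmc3* may be shared with *Slc39a13*, whose exons overlap it, because the library kit does not keep strand.

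Among the 11 non-ATPase subunits, the groups did not overlap for 9 (81.8%), with the iECKO libraries higher, beside 14.7% of all genes tested. *Psmd11*, a lid subunit, was just outside the threshold, at 1162, 1176 and 1148 against 1329.51, 1499.89 and 1567 (log2 fold change 0.33, SE 0.090, adjusted *P* = 0.063), and passed it when iECKO replicate 1 was left out (adjusted *P* = 0.0459). *Psmd13*, another lid subunit, had a log2 fold change of 0.30 (adjusted *P* = 0.0756), and its exons overlap those of *Sirt3*. *Psmd2* and *Psmd1*, the large scaffold subunits of the base, were at 0.23 (adjusted *P* = 0.0985) and 0.20 (adjusted *P* = 0.183). The ubiquitin receptor *Psmd4* was at 0.11 (adjusted *P* = 0.487). *Psmd8* was the lowest, at 2383, 2050.3 and 2084 against 2326, 2188 and 2222. Its groups overlapped, with a log2 fold change of 0.05 (SE 0.086, adjusted *P* = 0.777).

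**Figure D2:**
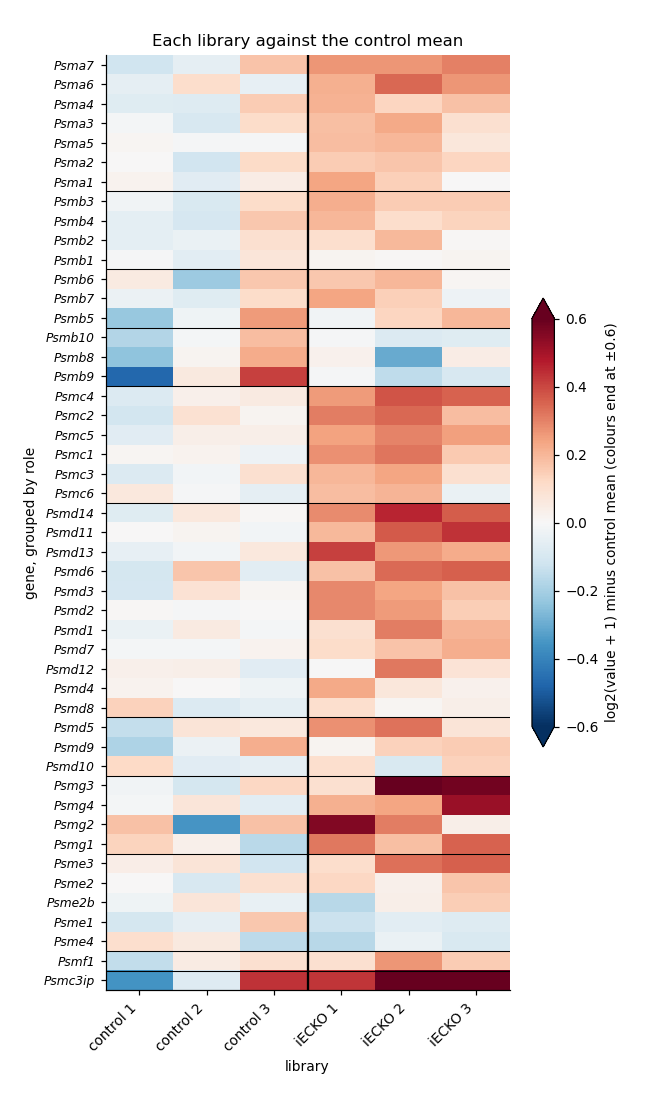
Log2 of the normalized count plus 1, minus its control mean, as colour for each proteasome gene (rows, by role, without *Psmb11* and *Psma8*) in each of the 6 libraries (columns), with colours ending at ±0.6. Most 19S genes lie above 0 in all 3 iECKO libraries, and control replicate 3 has the highest value of the control libraries for every β subunit drawn.

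The constitutive 20S core differed in the same direction but less. All 14 genes of its α and β rings had a log2 fold change above 0, with a median of 0.15. At the adjusted threshold 0 passed, beside 8.25% of all genes tested. All iECKO libraries lay above all control libraries for 5 (35.7%), beside 14.7% of all genes tested. Their summed normalized counts were 21722, 21262 and 23948 in the control and 25085, 25051 and 23964 in the iECKO libraries. The mean was 10.7% higher in the iECKO libraries (24700.2 ± 637 against 22311 ± 1437, SD, n = 3 each), and control replicate 3 was almost level with the lowest iECKO library. Whether the 19S and 20S differences themselves differ was not tested.

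The 7 α subunits, whose ring gates the entry to the chamber, had log2 fold changes of 0.13 to 0.28 with a median of 0.17. *Psma7* was the highest, at 1457, 1528 and 1783 in the control and 1903, 1904 and 1951 in the iECKO libraries, which did not overlap (log2 fold change 0.28, SE 0.094, adjusted *P* = 0.121). *Psma1* was the lowest, at 1622, 1524 and 1645 against 1881, 1765 and 1601, and its groups overlapped (log2 fold change 0.13, SE 0.089, adjusted *P* = 0.433). *Psma6* had the lowest adjusted *P* of the ring, 0.0908.

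The 4 structural β subunits, which have no protease activity, had log2 fold changes of 0.01 to 0.18. *Psmb3* was measured at 1156, 1099 and 1265 in the control and 1363, 1304 and 1302 in the iECKO libraries. Its groups did not overlap (log2 fold change 0.18, SE 0.087, adjusted *P* = 0.272). *Psmb1* was level between genotypes, at 2170.3, 2087 and 2298 against 2206, 2197 and 2209.95, with a log2 fold change of 0.01 and a 95% confidence interval of -0.157 to 0.185 (adjusted *P* = 0.933), and its direction reversed when control replicate 2 was left out.

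The 3 constitutive catalytic subunits, which cut peptides, overlapped between genotypes. *Psmb5*, the chymotrypsin-like protease, was at 808.9, 930.1 and 1134 in the control and 935.8, 1039 and 1090.19 in the iECKO libraries (log2 fold change 0.10, SE 0.136, adjusted *P* = 0.698). *Psmb6*, the caspase-like protease, was at 1371, 1133 and 1477 against 1475, 1513 and 1328 (0.12, SE 0.116, adjusted *P* = 0.578). *Psmb7*, the trypsin-like protease, was at 1778, 1736 and 1968 against 2148, 2016 and 1787 (0.12, SE 0.097, adjusted *P* = 0.521). Control replicate 3 was the highest control library for all 3.

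The immunoproteasome catalytic subunits were the role in which no member had a positive log2 fold change. *Psmb8* (chr17:34197721-34201454), which replaces *Psmb5*, was measured at 835.2, 997.8 and 1151 in the control and 1003, 798.5 and 1016 in the iECKO libraries. *Psmb9* (chr17:34181987-34187764), which replaces *Psmb6*, was at 220.1, 318.6 and 406.1 against 304.3, 274.8 and 285.8. *Psmb10*, which replaces *Psmb7*, was at 649.1, 727.5 and 831.6 against 729.2, 691.4 and 695.5. All 3 overlapped between genotypes, and the control values spread more widely than the iECKO values for each.

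Their log2 fold changes were -0.08 for *Psmb8* (95% confidence interval -0.419 to 0.261, adjusted *P* = 0.797), -0.08 for *Psmb9* (-0.593 to 0.425, adjusted *P* = 0.858) and -0.05 for *Psmb10* (-0.321 to 0.212, adjusted *P* = 0.821). None passed the test, and the intervals include the 0.17 of the median member. All 3 log2 fold changes turned positive without control replicate 3, the control library with the highest values, at 0.032, 0.12 and 0.037. The exons of *Psmb8* overlap *Gm20496* and those of *Psmb9* overlap *Tap1*, so reads may be shared. The same holds for *Psmb5* with *Mir686* and *Psmb7* with *Nek6*, and for further members, among them *Psmd1*, *Psme1* and *Psmg3*, with other genes.

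The ratio of each immunoproteasome subunit to the constitutive subunit it replaces is a measure of composition that does not depend on how libraries are scaled. The ratio of *Psmb8* to *Psmb5* normalized counts was 1.04 ± 0.030 in the control and 0.924 ± 0.152 in the iECKO libraries (SD, n = 3 each, two-sided exact permutation *P* = 0.3). The ratio of *Psmb9* to *Psmb6* was 0.239 ± 0.068 against 0.201 ± 0.017 (exact permutation *P* = 0.4). That of *Psmb10* to *Psmb7* was 0.402 ± 0.032 against 0.357 ± 0.028 (exact permutation *P* = 0.2). All 3 ratios were lower on average in the iECKO libraries, at 0.889, 0.842 and 0.888 times the control mean, but the groups overlapped for each, and the adjusted *P* over the 3 comparisons was 0.4 for each. The design could not give less than 0.1.

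**Figure D3:**
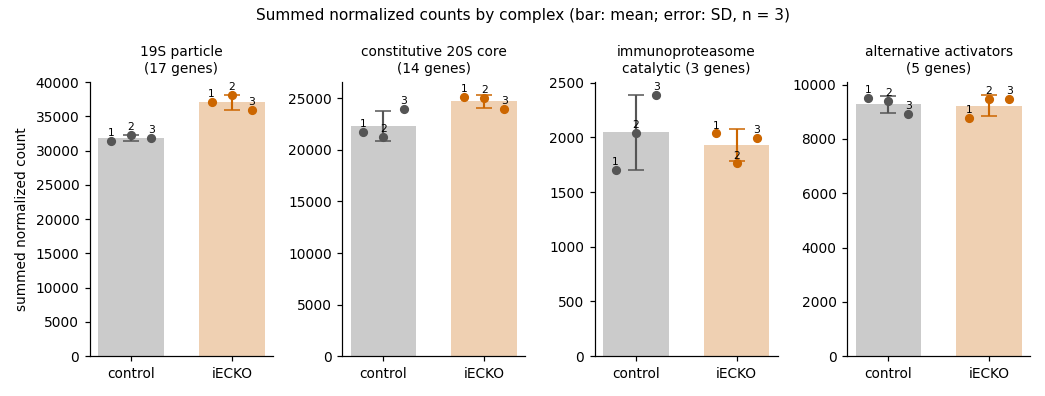
Summed normalized counts per library for the 19S particle, the constitutive 20S core, the immunoproteasome catalytic subunits and the alternative activators, with numbered points for libraries, bars for the mean and error bars for the SD (n = 3). Only the 19S and the 20S sums are higher in all 3 iECKO than in all 3 control libraries, the 20S sums by a narrow margin.

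Alternative activators dock on the same core in place of the 19S particle. *Psme1* and *Psme2* encode the interferon-inducible PA28 subunits, with log2 fold changes of -0.09 (adjusted *P* = 0.610) and 0.11 (adjusted *P* = 0.528). Reads of *Psme2b*, a near-identical copy of *Psme2*, are uncertain. *Psme3*, the nuclear activator, was the highest of the 5, at 1539, 1583 and 1383 in the control and 1615, 1888 and 1924 in the iECKO libraries, which did not overlap (log2 fold change 0.27, SE 0.1003, adjusted *P* = 0.153). *Psme4*, whose product PA200 acts on histones, was the lowest, at 5004, 4858 and 4190.5 against 4158, 4541 and 4387, and its groups overlapped (log2 fold change -0.10, SE 0.091, adjusted *P* = 0.561). The summed counts of the activators were 9267 ± 306 in the control and 9223 ± 398 in the iECKO libraries.

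The genes for assembly factors are expressed at lower levels. *Psmg1* to *Psmg4*, whose products pair to build the α ring, had log2 fold changes of 0.29 to 0.50, and the sum of their counts was 24.6% higher in the iECKO libraries. *Psmg3* was the highest, at 61.7, 58.1 and 68.4 in the control and 67.0, 110.9 and 93.8 in the iECKO libraries, with overlap (log2 fold change 0.50, SE 0.262, adjusted *P* = 0.299). *Psmg1* was the lowest, at 310.4, 288.4 and 252.5 against 352.6, 320.9 and 362.2, without overlap (0.29, SE 0.140, adjusted *P* = 0.264). Despite larger log2 fold changes than those of the core subunits, none passed the test, and their SEs were larger.

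The chaperones that help to assemble the 19S base, *Psmd5*, *Psmd9* and *Psmd10*, had log2 fold changes of 0.05 to 0.23 and overlapped between genotypes. *Psmd5* was at 441.9, 514.0 and 509.8 in the control and 590.1, 611.8 and 513.6 in the iECKO libraries (0.23, SE 0.123, adjusted *P* = 0.314). *Psmd10*, which encodes gankyrin, was at 229.4, 200.8 and 203.3 against 226.1, 197.9 and 231.8 (0.05, SE 0.154, adjusted *P* = 0.885). The inhibitor *Psmf1* had a log2 fold change of 0.17 (adjusted *P* = 0.423). *Psmb11*, the thymus-specific catalytic subunit, was near the filter, at 0 to 13.04 in the 6 libraries.

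*Psmc3ip* had the highest log2 fold change under the symbol rule, although it encodes no proteasome component. Its normalized counts were 44.0, 53.8 and 77.1 in the control and 76.7, 106.1 and 137.9 in the iECKO libraries. The groups overlapped narrowly (log2 fold change 0.86, SE 0.316, adjusted *P* = 0.143), and its exons overlap those of *Mlx*.

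Levels per length differed between the roles. Control means of normalized counts per kilobase of the principal transcript were 1065 for *Psmb5*, 1575 for *Psmb7* and 1663 for *Psmb6*, against 611 for *Psmb8*, 561 for *Psmb10* and 233 for *Psmb9*. Each immunoproteasome subunit was thus listed below its constitutive counterpart on the per-length scale, although *Psmb8* and *Psmb5* had similar normalized counts. The α subunits ranged from 582 (*Psma2*) to 1739 (*Psma7*), and the 19S subunits from 408 (*Psmd11*) to 1492 (*Psmc3*). These values depend on the annotated length. The control means of *Psma2* and *Psma7* were 1695 and 1589 normalized counts, over transcripts of 2911 and 914 bases. Which transcripts the cells expressed was not tested, so a difference in RNA level between subunits is not shown. *Psma2* and *Psma3* have the longest annotated transcripts of the α ring and the lowest values in it. *Psme1* was at 1590.2, *Psme2* at 1110.4, *Psme4* at 722, *Psme3* at 564, and the *Psmg* genes at 71.0 to 283.

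**Figure D4:**
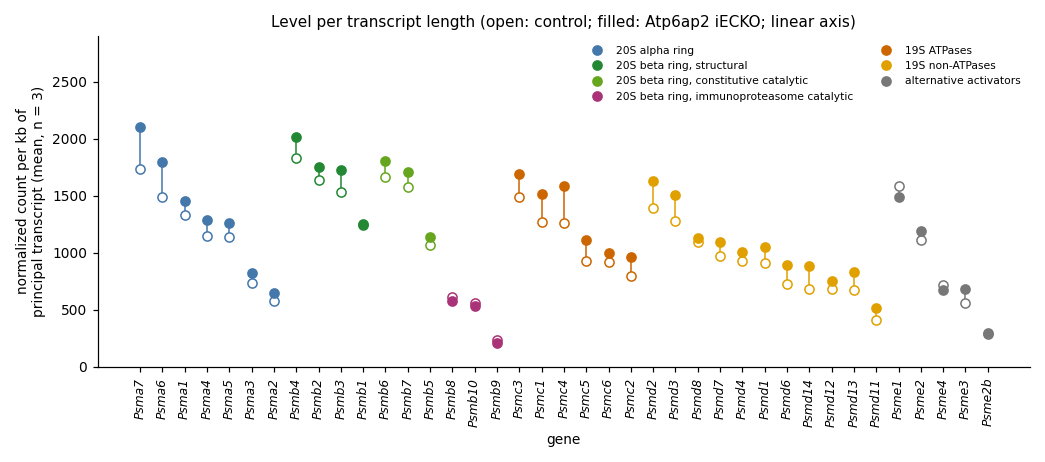
Mean normalized count per kilobase of the principal transcript for the core, 19S and activator genes, by role, on a linear axis (open points control, filled points iECKO). The immunoproteasome catalytic subunits lie at 233 to 611 in the control libraries, below the constitutive ones at 1065 to 1663.

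Libraries of the same genotype also differed in their proteasome genes. The median log2 ratio of the members to their control mean was -0.04, -0.01 and 0.05 in the control and 0.18, 0.20 and 0.15 in the iECKO libraries, and control replicate 3 was the nearest control library to the iECKO group. Among the 31 constitutive 26S genes, iECKO replicate 2 was the highest library for 15, iECKO replicate 1 for 9 and iECKO replicate 3 for 4. The lowest was control replicate 1 for 14, control replicate 2 for 12 and control replicate 3 for 5, and never an iECKO library. The 20S genes set control replicate 3 apart, with a median log2 ratio of 0.11, more than the 19S genes, with 0.0020. Without control replicate 3, the members' median log2 fold change was 0.21, and all iECKO libraries lay above the remaining control libraries for 34 of 49 members (69.4%), beside 20.4% of all genes in that comparison.

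Values of other gene groups moved with the genotype beside these differences. Of all genes tested, 50.7% had a log2 fold change above 0, and 3.28% rose and 4.97% fell at the adjusted threshold. Of 24 cell cycle genes, 24 had a log2 fold change above 0 (median 0.96) and 14 passed the adjusted test, though 0 did without iECKO replicate 2, iECKO replicate 3 or control replicate 3, 6 without iECKO replicate 1, 7 without control replicate 1 and 22 without control replicate 2. Their summed normalized counts were 29749, 53221 and 31389 in the control and 67686, 77119.8 and 66272 in the iECKO libraries. The highest sum was that of iECKO replicate 2, and the highest control sum that of replicate 2. Among the control libraries, the members' median log2 ratio was -0.01 in replicate 2 and highest in replicate 3, at 0.05. Of 24 fibroblast markers, 16 fell and 1 rose (median -1.40, 7 calls without iECKO replicate 3 or control replicate 3, 8 without iECKO replicate 2, 11 without control replicate 2), with sums of 180583 to 222743 in the control and 98372 to 136585 in the iECKO libraries. Of 24 mural and smooth muscle markers, 16 fell (median -1.52, 11 to 19 calls with a library left out), with sums of 81499 to 90183 and 52406 to 63396. Of 30 endothelial markers, 1 fell and 0 rose (median -0.01), and the ranges of their sums, 576854 to 766367 and 545326 to 667652, overlapped. Of 25 leukocyte markers, 18 had a log2 fold change above 0 (median 0.29, above the members' median) and 0 passed the adjusted limma test or had an unadjusted *P* below 0.05, and their sums overlapped (13379.5 to 24238 and 11327 to 31869). Of 24 epithelial markers, 1 rose and 0 fell (median -0.10). Control replicate 3 stood apart in their sum, at 95852 against 41292 and 37767 in the other control libraries and 46790.0 to 54584 in the iECKO libraries. Of 13 erythroid and platelet markers, 0 passed the adjusted limma test or had an unadjusted *P* below 0.05 (median -0.25), with overlapping sums of 13809 to 48369 and 12649 to 23209. The relative depth estimated from the smallest steps also differed between genotypes. The part of these values in the proteasome result was not tested.

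Factors that work with the proteasome moved less uniformly. Of 20 proteasome-associated genes, 15 had a log2 fold change above 0 (75%, median 0.08), 2 rose and 1 fell. Of all genes tested, 50.7% were above 0, 3.28% rose and 4.97% fell. Both genes that rose encode deubiquitinases that bind the 19S particle. *Uchl5* was at 443.2 ± 40.5 in the control and 621.1 ± 7.5 in the iECKO libraries (log2 fold change 0.49, SE 0.113, adjusted *P* = 0.0388), and *Usp14* at 1335 ± 160 and 1806 ± 116 (0.44, SE 0.107, adjusted *P* = 0.0446; SD, n = 3 each). The groups did not overlap for either gene. *Uchl5* did not pass with any library left out (adjusted *P* = 0.0543 to 0.139) and *Usp14* passed in only 1 of 6 such fits. *Hspb1*, a small heat shock protein, fell by 0.94 (log2 scale, SE 0.229, adjusted *P* = 0.0454), and passed in 1 of 6 such fits. With the *Xist* covariate, 0 genes of the list passed. The ubiquitin receptor *Adrm1*, which anchors *Uchl5*, was at 0.23 (adjusted *P* = 0.149).

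Regulators of proteasome transcription differed in both directions. Of 20 tested, 14 had a log2 fold change above 0 (70%, median 0.08), beside 50.7% of all genes. All iECKO libraries lay above all control libraries for 5 (25%) and below them for 1, beside 14.7% and 15% of all genes. At an unadjusted limma *P* below 0.05, 4 were higher (20%) and 1 lower, beside 11.6% and 12.3% of all genes. *Nfe2l1*, the factor that raises proteasome gene transcription when the proteasome is inhibited, was at 9068 ± 565 in the control and 9061 ± 594 in the iECKO libraries (adjusted *P* = 0.995), and *Nfe2l2* had a log2 fold change of -0.03 (adjusted *P* = 0.921). Their RNA says nothing of the processing that activates the NFE2L1 protein. Of the 20 regulators tested, 1 rose, *Foxm1*, a driver of cell cycle genes (log2 fold change 0.86, adjusted *P* = 0.0335), and 1 fell, *Mafk*, a partner of NFE2 factors (-0.39, adjusted *P* = 0.0331). Of all genes tested, 3.28% rose and 4.97% fell. With each library left out, *Foxm1* passed in 1 of 6 fits and *Mafk* in 0. Among 30 ubiquitin and p97 genes, 0 passed the adjusted limma test in either direction, beside 8.25% of all genes, and the median log2 fold change was 0.05. At an unadjusted *P* below 0.05, 5 were higher (16.7%) and 2 lower, beside 11.6% and 12.3% of all genes.

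Interferon induces the immunoproteasome genes together with genes of antigen processing and defence. Of 29 interferon response genes, 7 fell and 0 rose (median -0.29), beside 4.97% and 3.28% of all genes tested. *Stat2*, a transcription factor of type I interferon signalling, fell from 3474 ± 190 to 2192 ± 118 (SD, n = 3 each, log2 fold change -0.66, adjusted *P* = 0.00848), *Iigp1*, an interferon-inducible GTPase, from 5942 ± 1404 to 2496 ± 579 (-1.25, adjusted *P* = 0.0178), and the GTPases *Gbp4* and *Igtp* fell by 0.87 and 0.78 on the log2 scale (adjusted *P* = 0.0116 and 0.0302). With each library left out, *Stat2* passed in 6 of 6 fits, *Gbp4* in 5, *Iigp1* in 4 and *Igtp* in 2, and the list held 2 to 7 calls, with 2 without iECKO replicate 2 and 3 without iECKO replicate 3 or control replicate 3. *Irf1*, whose product drives *Psmb9* in interferon responses, had a log2 fold change of 0.03 (adjusted *P* = 0.907). Of 15 antigen processing genes, 0 passed the adjusted limma test, beside 8.25% of all genes, and the median was 0.03. *Tap1* and *Tap2*, the peptide transporters encoded beside *Psmb8* and *Psmb9*, were at -0.18 and -0.14.

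**Figure D5:**
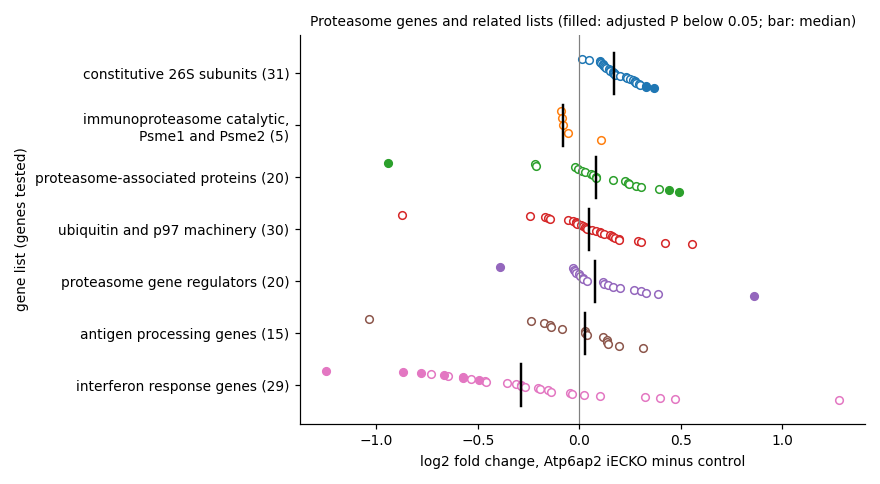
Log2 fold change of each tested gene in the constitutive 26S subunits, the interferon-inducible subunits and 5 related lists, with the median of each list as a bar and genes past an adjusted *P* of 0.05 filled. Medians run from -0.29 for interferon response genes to 0.17 for the 26S subunits, beside 0.0049 over all genes tested.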

How the data were processed

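The authors extracted RNA from iLECs, made unstranded mRNA libraries, aligned reads to mm10 with BaseSpace RNA-Seq Alignment 2.0.1 and obtained gene values with BaseSpace Differential Expression 1.0.1. The annotation is not given in the sources used here. They deposited 1 table of normalized signal, 24972 symbols by 6 libraries. The labels call these values raw counts, but they are not whole numbers, their median ratio to the geometric mean is 1.00 in each library, and only 53.5% to 75.0% of low values fall on multiples of the smallest step, so reads and counting error are unknown.

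The scale analysed was log2(value + 1), so fold changes of low genes are understated. Genes at 10 or more in at least 3 libraries (14456) were tested with limma 3.58.1 (R 4.3.3, mean-variance trend, 3 against 3, no covariate), with Benjamini-Hochberg adjustment over all genes tested and a threshold of 0.05. Ratios were compared with exact permutation tests (SciPy 1.17.1). Positions and overlaps came from GENCODE for GRCm38, in which 24490 symbols were found, and promoters from RefSeq. Named members were those past the threshold, the highest and lowest of each role, the catalytic subunits and their counterparts, and *Psmc3ip*. From other lists, up to 4 genes past the threshold were named, and further genes (*Psmd1*, *Psmd2*, *Psmd4*, *Psmd11*, *Psmd13*, *Psma6*, *Psme1*, *Psme2*, *Psmf1*, *Adrm1*, *Nfe2l1*, *Nfe2l2*, *Irf1*, *Tap1*, *Tap2*) after their values were seen. Members and lists were chosen with earlier results of these data known. On simulated data, 45.3% of 86 genes changed by 0.75 (log2) and 73% of 111 changed by 1.5 were called. Of the 130 calls, 10 were of unchanged genes, and 0 genes were called where no change was simulated. Noise was drawn independently for each gene, without shifts shared by many genes of a library, so the simulation does not show how such shifts affect the calls. Alternatives were other filters, scalings, pseudocounts, thresholds and variance models, a replicate block, each library left out and, chosen after seeing the data, a covariate for *Xist*.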

Additional observations from a re-analysis of the deposited data

How the results depend on the processing

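The number of members called, 2, was 0 with a covariate for *Xist*, without the filter on low values, without the mean-variance trend and at a threshold of 0.01, 1 (*Psmd14*) with library totals, and 0 to 1 with each library left out. Over all genes, 1193 calls became 767 with the *Xist* covariate, 304 without the trend, 90 at 0.01, and 206 to 983 with a library left out (206 and 250 without iECKO replicates 3 and 2, 270.0 without control replicate 3). The 22 members without overlap, beside 14.7% of all genes, became 23 to 34 with a library left out, beside 17.7% to 22.2% of all genes, since fewer libraries overlap less. The 12 calls in related lists became 1 without the trend and 2 to 9 with a library left out, and the 49 in marker lists 19 without the trend and 18 to 46. The members' median of 0.17 became 0.21 with library totals, where the median of all genes was 0.045 and 573 genes were higher and 599 lower, against 474 and 719, and 0.14 to 0.21 with a library left out. The *Atp6ap2* change was -1.54 to -1.0 with a library left out and -1.22 without the trend (adjusted *P* = 0.0917). Directions reversed for *Psmb1* (-0.019 to 0.051 with a library left out, negative without control replicate 2), *Psmb5* (-0.010 to 0.23, negative without control replicate 1), *Psmb8* (-0.20 to 0.034, positive without iECKO replicate 2 or control replicate 3), *Psmb9* (-0.32 to 0.12) and *Psmb10* (-0.14 to 0.037), the last 2 positive without control replicate 3, and with a library left out also for *Psme2b* (-0.064 to 0.093) and *Psmb11* (-0.25 to 1.303). The cause was not tested. Libraries of equal replicate number correlated in their deviations from the genotype means by 0.252, 0.114 and 0.078, so the numbers were not taken as pairs. With a replicate block, 1508 genes were called, with the members' calls at 2 and their median at 0.17. Read numbers are unknown, and the differences of the members other than *Psmc3ip* are smaller than those simulated.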
